A study of Homo sapiens with 6 samples.

Results

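Mitochondrial quality control was followed through 10 genes: PINK1, BNIP3, BNIP3L and FUNDC1 of mitophagy, MFN1, MFN2 and OPA1 of mitochondrial fusion, and DNM1L, FIS1 and MFF of mitochondrial fission. They were chosen by symbol, and all 10 were found among the 60419 genes listed and among the 16395 genes with enough counts to be tested. RNA was sequenced from 12Z cells, a single immortalised human endometriotic line (endometriosis is endometrium-like growth outside the uterus), labelled as wild type. Both groups were grown in medium with 10% charcoal-stripped serum. The Myrrh group (3 libraries) received myrrh extract, made from a tree resin, at 100 µg/mL in DMSO for 12 h, and the DMSO group (3 libraries) received the solvent. The series asks how the extract alters gene expression. Nothing in the labels places the libraries of a group in separate cultures, and the p-values therefore cover the spread between these libraries alone, which may be technical.

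Mitochondria form a network that divides and joins, and damaged parts are removed by autophagy, a process called mitophagy. The kinase PINK1 builds up on depolarised mitochondria and marks them with phosphorylated ubiquitin, whereas BNIP3, BNIP3L (also called NIX) and FUNDC1 are receptors of the outer membrane that bind the autophagy machinery directly. The mitofusins MFN1 and MFN2 join outer membranes and OPA1 joins inner membranes. DNM1L, the dynamin-related GTPase DRP1, constricts mitochondria after it is recruited by adaptors such as MFF and FIS1.

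In the Myrrh libraries the 4 mitophagy genes and MFF were lower, MFN2, OPA1 and FIS1 were higher, and MFN1 and DNM1L did not pass the test. These changes were small: MFN2 rose 1.45-fold (95% interval 1.33 to 1.58), FUNDC1 was 1.41-fold lower, and no gene of the 10 reached 2-fold. With p-values from edgeR (quasi-likelihood), adjusted by Benjamini-Hochberg over all genes, 3 of 10 were called higher and 5 of 10 lower at an adjusted p of 0.05. Across all genes tested, 39.3% were called higher, 39.1% lower and 78.4% in either direction, so the 8 calls among 10 genes were close to the share of all genes. Tested instead for a log2 change beyond 0.5 with edgeR's glmTreat, 0 of the 10 were called, against 45.6% of all genes. At an unadjusted p of 0.05 that test also gave 0 of the 10. DESeq2's test against no change gave the same 3 and 5 calls by number, beside 74.3% of all genes called. The median absolute log2 fold change was 0.29 over the 10 genes and 0.61 over all genes tested, and each of the 10 lay below the latter. Low counts widen fold changes, so genes of similar abundance were also taken: among the 8146 genes with a mean between 14.3 and 138 CPM (read counts relative to library size, scaled with TMM factors), the range of the 10 genes, the median was 0.51. In that range 19.8% of genes were called with at least a 2-fold change, and MFN2 alone among the 10 exceeded the median. These comparisons are descriptions, since genes are not independent replicates.

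**Figure D1:**
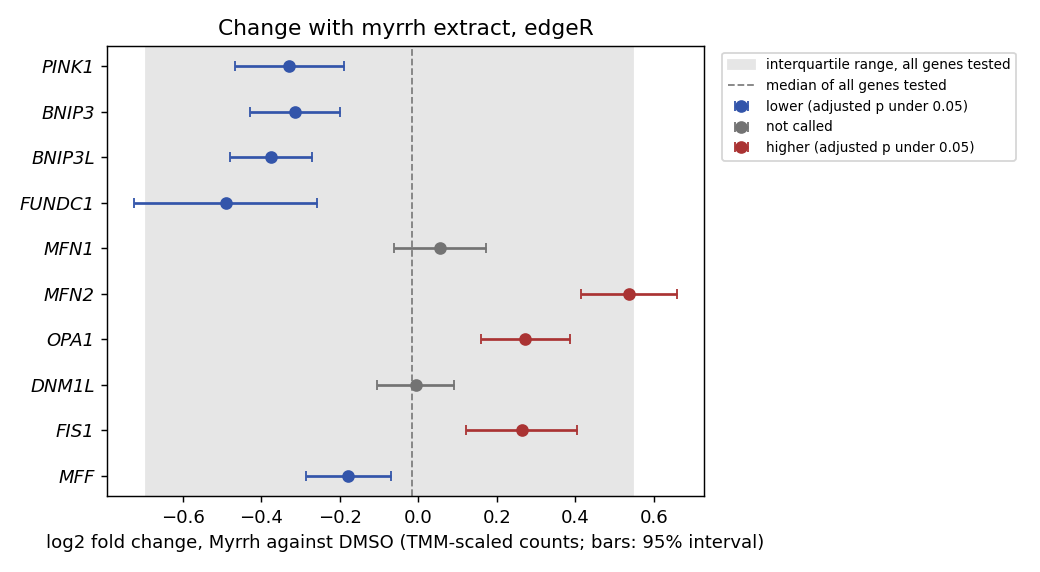
Log2 fold change of each gene, Myrrh against DMSO, from edgeR on TMM-scaled counts of 3 libraries per group; points are estimates, bars 95% intervals, the grey band the interquartile range of all 16395 genes tested and the dashed line their median. PINK1, BNIP3, BNIP3L, FUNDC1 and MFF lie below 0, MFN2, OPA1 and FIS1 above it, and every estimate falls inside the grey band.

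The promoters of the genes with the largest fall (FUNDC1) and the largest rise (MFN2) among the 10 are shown beside that of BNIP3, a known target of the hypoxia-inducible factor HIF1. Each runs 5′ to 3′ on the gene's strand from 250 bases before the start site to 50 after it, as RefSeq gives it for GRCh38.p14. Capitals mark the HIF core letters ACGTG and GCGTG on either strand.
BNIP3 (chr10:131981874-131982173, minus strand): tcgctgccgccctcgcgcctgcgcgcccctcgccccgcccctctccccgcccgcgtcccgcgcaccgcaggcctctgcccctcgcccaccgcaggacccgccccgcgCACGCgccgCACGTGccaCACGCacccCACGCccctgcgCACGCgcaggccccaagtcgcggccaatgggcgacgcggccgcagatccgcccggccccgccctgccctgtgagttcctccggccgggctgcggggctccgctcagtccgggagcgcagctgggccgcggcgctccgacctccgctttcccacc
FUNDC1 (chrX:44542810-44543109, minus strand): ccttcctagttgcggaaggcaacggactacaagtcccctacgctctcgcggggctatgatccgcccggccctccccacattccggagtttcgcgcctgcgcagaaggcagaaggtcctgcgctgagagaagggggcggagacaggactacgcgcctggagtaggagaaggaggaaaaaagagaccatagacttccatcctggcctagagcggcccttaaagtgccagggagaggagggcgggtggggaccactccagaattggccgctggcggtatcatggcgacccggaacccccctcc
MFN2 (chr1:11980194-11980493, plus strand): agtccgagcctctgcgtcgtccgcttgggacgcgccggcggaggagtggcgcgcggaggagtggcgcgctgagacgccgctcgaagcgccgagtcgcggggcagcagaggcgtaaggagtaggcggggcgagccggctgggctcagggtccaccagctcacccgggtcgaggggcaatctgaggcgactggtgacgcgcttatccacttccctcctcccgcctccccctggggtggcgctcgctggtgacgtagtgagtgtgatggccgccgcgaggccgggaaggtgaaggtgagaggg
The BNIP3 window held 4 matches to GCGTG and 2 to ACGTG, which start between positions -143 and -104 from the start site. The 2 ACGTG matches are both strands of a single CACGTG, the E-box letters. The FUNDC1 and MFN2 windows held neither core. Of 35116 promoter windows of the same length, 36.5% held GCGTG, 21.4% ACGTG and 7.26% CACGTG. RefSeq windows were matched for 8 of the 10 genes. Of these, 3 had GCGTG and 2 ACGTG in at least one window, and none had TGATGNAAN, the C/EBP-ATF letters, which 3.61% of all windows held on either strand. A match describes letters only.

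The libraries held between 22454783 and 27588151 estimated counts, and the 10 genes had 225 to 3967 counts each in a library. TMM factors were 1.05 in each DMSO library and 0.933 to 0.973 in the Myrrh libraries. Epithelial and fibroblast markers were both present, with the keratins KRT8, KRT18 and KRT19 and the mesenchymal genes VIM, COL1A1 and COL3A1 among the detected ones, while the epithelial cadherin CDH1 had 1 to 7 counts per library. The 5 endothelial markers were under 1 TPM in every library, and among the 5 leukocyte markers CD68, a lysosomal protein gene, was the exception. The summed level of the 8 epithelial markers was 1607 to 1642 TPM (transcript abundance scaled for length and to a fixed sum per library) in DMSO and 1169 to 1275 in Myrrh, and that of the 8 fibroblast markers 4772 to 4916 and 2030 to 2136. All 8 fibroblast markers were called lower, but of the 7 epithelial markers tested 5 were called lower and 2 higher, EPCAM and KRT7, which are named here after their values were seen. In DMSO, EPCAM had a mean of 1.12 TPM and KRT7 of 5.84 TPM. Of the epithelial markers called lower, KRT8 had 771 TPM and CLDN4, also named after its value was seen, 2.20 TPM. The part of these markers in the changes below was not tested. In RNA from whole cultures, fewer cells of a kind and less RNA per cell cannot be told apart.

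On the length-scaled TPM scale, the order of levels in DMSO ran from MFF at 132 ± 3.86 TPM (mean ± SD, n = 3) to FUNDC1 at 24.2 ± 1.77 TPM. BNIP3L stood at 85.1 ± 6.11 TPM, above DNM1L (58.3 ± 1.37) and MFN2 (57.6 ± 3.30), whose libraries overlapped. FIS1 (51.6 ± 1.48) and BNIP3 (42.3 ± 2.40) followed without overlap. PINK1 (30.6 ± 1.20 TPM) overlapped OPA1 (30.0 ± 1.70), and MFN1 (26.1 ± 0.92) overlapped FUNDC1. In Myrrh, MFN2 had moved to the second place at 81.8 ± 6.34 TPM, overlapping BNIP3L at 78.6 ± 3.36. OPA1 (40.8 ± 5.41 TPM) then overlapped BNIP3 (38.9 ± 1.01), and PINK1 (24.1 ± 2.33) stood below MFN1 (27.4 ± 0.377). MFF (122 ± 4.74 TPM) remained the highest and FUNDC1 (17.6 ± 2.63) the lowest.

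**Figure D2:**
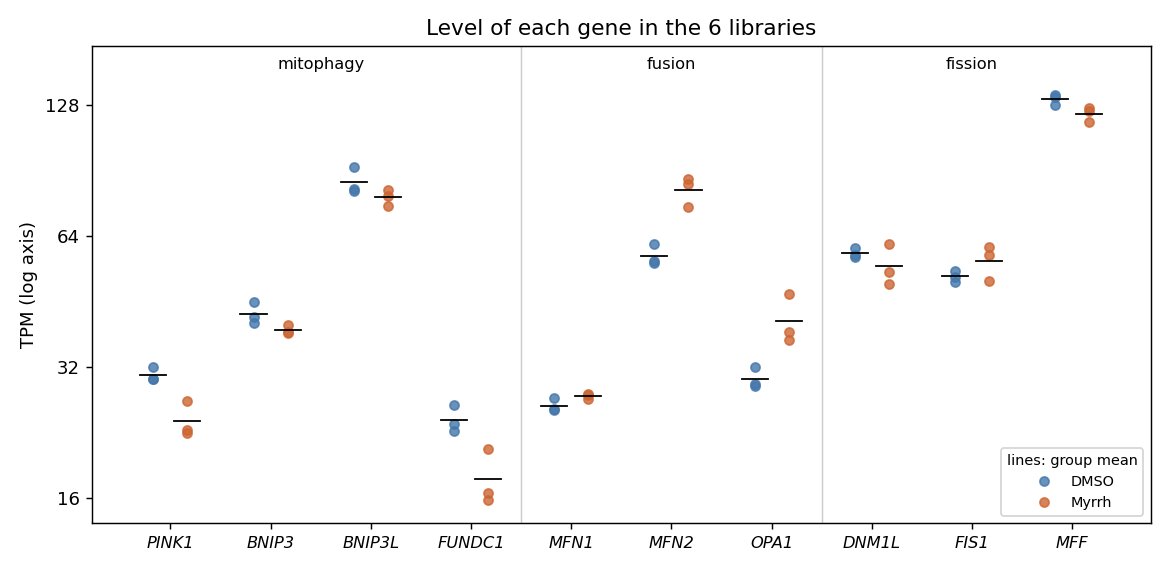
TPM (log axis) of each gene in the 3 DMSO and 3 Myrrh libraries, grouped by role; points are libraries and black lines group means. The 3 Myrrh libraries lie above the DMSO libraries for MFN2 and OPA1 and below them for PINK1, FUNDC1, BNIP3 and MFF, while those of BNIP3L, MFN1, DNM1L and FIS1 overlap.

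Among the mitophagy genes, the kinase gene PINK1 had 48.2, 47.8 and 49.6 CPM in DMSO replicates 1, 2 and 3 and 36.0, 36.4 and 43.8 CPM in the Myrrh replicates. All 3 Myrrh libraries were below the DMSO libraries, with Myrrh replicate 3 closest to them. The CPM of the groups did not overlap for 9 of the 10 genes, against 80.3% of all genes tested. These 9 include MFN1, which was not called and had at most 48.17 CPM in DMSO and at least 48.24 CPM in Myrrh. The log2 fold change of PINK1 was -0.33 ± 0.067 (SE; adjusted p = 9.5e-05 by edgeR's quasi-likelihood test), and 36.8% of genes tested had a lower value. The gene lies on chromosome 1 at 20633455 to 20651511 (GRCh38, plus strand). PINK1-AS, transcribed from the opposite strand, covers 39.4% of its exon bases. Without a known strand setting, reads of the pair cannot be told apart. PINK1-AS had 5.49 CPM in DMSO and 5.25 CPM in Myrrh, a log2 fold change of -0.062 ± 0.14 (edgeR adjusted p = 0.686).

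BNIP3 encodes a receptor of the outer membrane. It had 67.6, 72.0 and 72.8 CPM in the DMSO libraries and 55.2, 59.7 and 55.9 CPM in the Myrrh libraries, which all lay below. Its log2 fold change was -0.31 ± 0.056 (adjusted p = 1.25e-05 by edgeR). Its paralogue BNIP3L, on chromosome 8, had 131, 134 and 143 CPM in DMSO and 102, 108 and 105 CPM in Myrrh, without overlap. BNIP3L was lower by a similar amount, at -0.38 ± 0.051 (edgeR adjusted p = 2.17e-07). Neither call held on the authors' log2(TPM + 1) values, where the differences were -0.12 for BNIP3 (limma adjusted p = 0.13) and -0.11 for BNIP3L (limma adjusted p = 0.142). The file lists 44 BNIP3 pseudogenes, and their counts over the 6 libraries came to 1.41% of those of BNIP3.

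FUNDC1, a receptor also linked to hypoxic mitophagy, had 18.1, 16.1 and 16.0 CPM in DMSO and 10.5, 14.7 and 10.6 CPM in Myrrh. The groups did not overlap, and Myrrh replicate 2 was the closest to the DMSO libraries. FUNDC1 had the lowest log2 fold change of the 10 genes, -0.49 ± 0.11 (adjusted p = 0.000552 by edgeR), with the widest interval (-0.72 to -0.26). It also had the fewest counts, 225 to 465 per library. FUNDC1 lies on chromosome X at 44523639 to 44543001, and its counts were whole numbers in every library, as were those of MFN1, MFN2, OPA1 and FIS1. RSEM had thus split no reads between these 5 genes and other genes in a way that left fractions.

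Among the fusion genes, the mitofusin gene MFN2 had 109, 111 and 119 CPM in DMSO and 163, 150 and 179 CPM in Myrrh. Every Myrrh library exceeded the DMSO libraries by more than the spread within either group. MFN2 had the largest change of the 10 genes, a log2 fold change of 0.54 ± 0.059 (edgeR adjusted p = 9.42e-09), and 74.6% of genes tested had a lower value. It lies on chromosome 1 at 11980181 to 12013514 and its longest annotated transcript has 19 exons. Its paralogue MFN1 (chromosome 3, 179347692 to 179394931) had 47.9, 44.7 and 48.2 CPM in DMSO and 49.4, 48.5 and 48.2 CPM in Myrrh. The MFN1 values were near each other in all 6 libraries, at a log2 fold change of 0.055 ± 0.057 (edgeR adjusted p = 0.382). The 95% interval of MFN1 ran from -0.063 to 0.17.

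OPA1, which joins inner membranes and shapes cristae, had 82.6, 79.5 and 88.8 CPM in DMSO and 104, 105 and 94.5 CPM in Myrrh. The Myrrh libraries were above the DMSO libraries, Myrrh replicate 3 by the least. The log2 fold change was 0.27 ± 0.055 (adjusted p = 7.18e-05 by edgeR). OPA1 moved by over 1.5 times with the scale, to 0.13 with library totals and 0.42 on log2(TPM + 1), and both were called (edgeR adjusted p = 0.0436 and limma adjusted p = 0.00147). OPA1 has 33 annotated transcripts, 15 of them coding, on chromosome 3 at 193593144 to 193697823.

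Among the fission genes, DNM1L, the GTPase itself, had 104, 105 and 106 CPM in DMSO and 107, 102 and 105 CPM in Myrrh. The groups overlapped, and the log2 fold change was -0.0074 ± 0.048 with a 95% interval of -0.11 to 0.091 (edgeR adjusted p = 0.891). With library totals DNM1L was called lower, at -0.15 (edgeR adjusted p = 0.00979), and with a filter of 5 CPM in 3 libraries at -0.11 (edgeR adjusted p = 0.0438).

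The adaptor gene MFF had 114, 119 and 117 CPM in DMSO and 101, 111 and 96.5 CPM in Myrrh. Its groups did not overlap, but Myrrh replicate 2 lay within 3 CPM of DMSO replicate 1. The log2 fold change was -0.18 ± 0.053 (adjusted p = 0.00325 by edgeR), the smallest of the 8 called. It was -0.32 with library totals, and it was not called on log2(TPM + 1) (-0.11, limma adjusted p = 0.0783).

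FIS1, another outer membrane protein of the fission machinery, moved the other way, from 24.3, 23.7 and 23.6 CPM in DMSO to 26.4, 29.2 and 30.4 CPM in Myrrh. The groups did not overlap, and the log2 fold change was 0.26 ± 0.069 (adjusted p = 0.00121 by edgeR). The FIS1 call was lost with library totals (0.12, edgeR adjusted p = 0.118) and on log2(TPM + 1) (0.12, limma adjusted p = 0.179). Between MFF and FIS1 the fission adaptors therefore had no common direction. With library totals the 10 genes gave 2 higher and 6 lower calls, beside 5378 higher and 7479 lower of all 16395 genes. Library totals moved the median of all genes by -0.14 on the log2 scale, beside changes of -0.18 for MFF and 0.26 for FIS1.

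Counts and TPM gave different sizes for some genes. TPM is not scaled with TMM factors, and the median of all genes tested was 0.041 on log2(TPM + 1) against -0.017 on counts. In addition, RSEM divides counts by the mean length of the transcripts it assigns. The log2 ratio of counts to TPM, set to 0 at each library's median gene, therefore moves with that length. For BNIP3L it was 0.054, 0.043 and 0.018 in DMSO and -0.19, -0.20 and -0.088 in Myrrh. The groups did not overlap, and the difference of -0.20 corresponds to a length 0.871 times that in DMSO. BNIP3L has 5 annotated coding transcripts, from 739 to 3610 bases. FIS1 went the other way, with -1.71, -1.74 and -1.79 in DMSO and -1.44, -1.63 and -1.56 in Myrrh, a length ratio of 1.15. Of the 13923 genes with more than 0.5 TPM in every library, 83.9% had a smaller absolute difference than BNIP3L and 84.6% a smaller one than FIS1. DNM1L (length ratio 1.11), MFN2 (1.07), BNIP3 (0.914) and FUNDC1 (1.01) also had groups that did not overlap, which makes 6 of the 10 genes, against 50.5% of the 13923. The absolute difference was smaller than that of MFN2 in 63.4% of these genes and smaller than that of FUNDC1 in 12.9%. The groups of PINK1 (1.06), MFN1 (1.03), OPA1 (0.932) and MFF (0.995) overlapped. Transcripts themselves were not measured separately here.

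**Figure D3:**
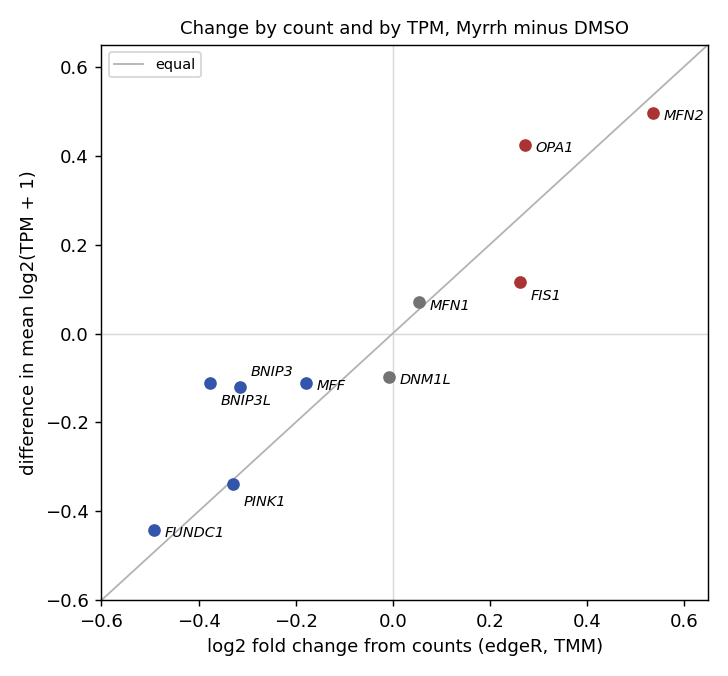
Change of each gene from counts (horizontal, log2 fold change by edgeR) against the difference in mean log2(TPM + 1) (vertical), Myrrh minus DMSO; the grey line marks equal values, and blue, red and grey points are genes called lower, higher or not called on counts. BNIP3 and BNIP3L lie near -0.1 on the vertical axis and below -0.3 on the horizontal one, and OPA1 lies above the line.

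Ratios between related genes were compared per library on TPM, with 3 ratios and a two-sided exact permutation test that cannot go below p = 0.1 with 3 libraries against 3. The ratio of MFN1 to MFN2 was 0.461, 0.456 and 0.442 in DMSO and 0.321, 0.371 and 0.318 in Myrrh. The groups did not overlap, and the log2 ratio differed by -0.43 (exact permutation p = 0.1, 0.15 after Benjamini-Hochberg adjustment over the 3 ratios). The ratio of DNM1L, the fission GTPase, to OPA1 was 2.07, 1.97 and 1.80 in DMSO and 1.31, 1.44 and 1.29 in Myrrh. It was lower in every Myrrh library, by 0.54 on the log2 scale (exact permutation p = 0.1, adjusted 0.15), and by 0.28 on TMM-scaled CPM. For the receptor paralogues BNIP3 and BNIP3L the ratio was 0.496, 0.508 and 0.488 in DMSO and 0.468, 0.484 and 0.534 in Myrrh. The groups overlapped, with a log2 difference of -0.0088 (exact permutation p = 0.9, adjusted 0.9).

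**Figure D4:**
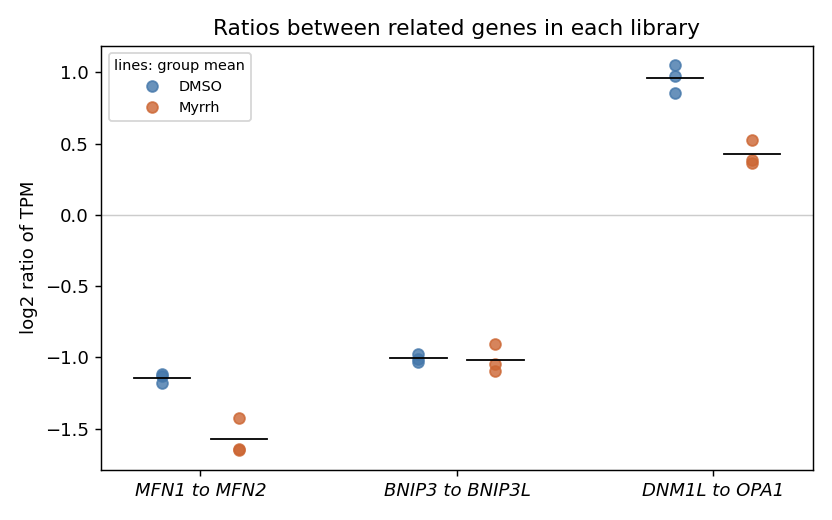
Log2 ratio of TPM between related genes in each library (points; DMSO blue, Myrrh orange), with lines at group means. The MFN1 to MFN2 and DNM1L to OPA1 ratios are lower in all 3 Myrrh libraries, and the BNIP3 to BNIP3L ratios overlap.

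Other genes of the same pathways were counted from 4 lists with 56 genes, which were all tested. Of these, 39 were called higher and 11 lower (69.6% and 19.6%), with a median log2 fold change of 0.45, against -0.093 over the 10 genes and -0.017 over all genes tested. A change of at least 2-fold was reached by 10 higher genes and 1 lower gene of these 56, and by 4814 of all 16395 genes tested (29.4%).

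In the list of the PINK1 axis and its brakes, 13 of 17 tested genes were called higher and 1 lower. MUL1, a ubiquitin ligase of the outer membrane, rose by 1.14 ± 0.075 (log2 fold change ± SE). PGAM5, a mitochondrial phosphatase, rose by 1.13 ± 0.058. RHOT2, a Miro GTPase that tethers mitochondria to motor proteins, fell by 0.73 ± 0.060.

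Of the 10 further receptors and ubiquitin adaptors, 8 were called higher and 1 lower. SQSTM1, the autophagy receptor p62, rose by 2.76 ± 0.057 and TOLLIP, a ubiquitin-binding adaptor, by 1.19 ± 0.067. NBR1, a relative of p62, fell by 0.37 ± 0.050. On counts, the receptors BNIP3, BNIP3L and FUNDC1 were thus called in the direction opposite to 8 of these 10 genes. The BNIP3 and BNIP3L calls did not hold on log2(TPM + 1). Of all genes tested, 39.3% were called higher and 39.1% lower.

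Of 12 fission adaptors and helpers, 9 were called higher and 3 lower. SPIRE1, an actin nucleator with a mitochondrial form, rose by 1.70 ± 0.055 and MTFR1, a mitochondrial fission regulator, by 1.50 ± 0.060. MIEF2, which recruits DNM1L, fell by 0.68 ± 0.096 and MTFR1L by 0.49 ± 0.059. MIEF1, the paralogue of MIEF2, rose by 1.39 ± 0.071 and was named after its value was seen. Of 17 genes of fusion, inner membrane proteolysis and cristae, 9 were called higher and 6 lower. PLD6, a mitochondrial phospholipase, rose by 1.92 ± 0.079, and CHCHD3, a cristae junction subunit, went from 69.0 ± 2.55 to 170 ± 1.44 CPM (n = 3). SPG7, an inner membrane protease subunit, fell by 1.39 ± 0.059 and the cristae subunit gene MICOS10 by 0.49 ± 0.072. OMA1, which cleaves OPA1 under stress, was at -0.17 ± 0.077 (edgeR adjusted p = 0.0483), and YME1L1, the other protease that cleaves OPA1, rose by 0.84 ± 0.054. These 2 were also chosen after their values were seen.

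**Figure D5:**
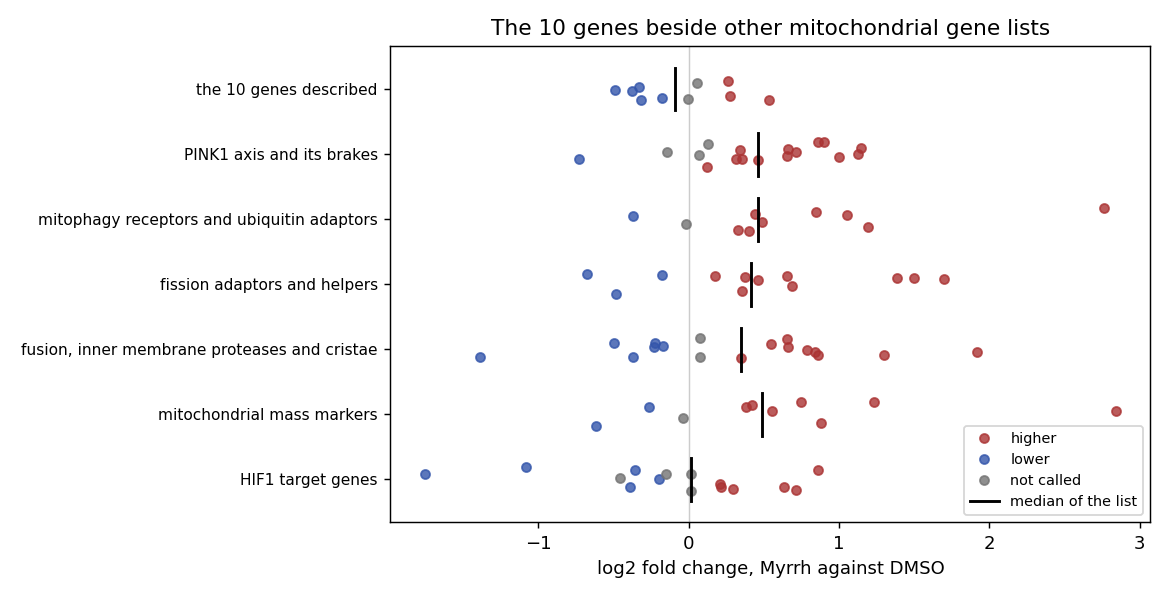
Log2 fold change (Myrrh against DMSO) of the 10 genes and of each tested gene in 6 other lists; red points were called higher, blue lower and grey not called by edgeR, black lines are list medians, and vertical scatter within a row carries no meaning. The 10 genes lie between -0.49 and 0.54, while single genes of the other lists reach from -1.75 to 2.84.

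Genes used as markers of mitochondrial content and of HIF1 activity were set beside these values, and neither content nor activity was itself measured. Of 10 genes for abundant mitochondrial proteins, 7 were called higher and 2 lower, with a median of 0.49. HSPD1, the matrix chaperonin, rose by 2.84 ± 0.060 and CYCS, cytochrome c, by 1.23 ± 0.054, while ATP5F1A of ATP synthase fell by 0.62 ± 0.052 and COX4I1 of cytochrome oxidase by 0.27 ± 0.056. Calls in this list thus went in both directions, with more of them higher. All genes tested were nearly even (39.3% called higher and 39.1% lower). Of the 10 mitophagy, fusion and fission genes, 3 were called higher and 5 lower. Of 15 tested HIF1 targets, the set to which BNIP3 belongs, 6 were called higher and 5 lower, with a median of 0.012. P4HA2, a collagen prolyl hydroxylase, rose by 0.86 ± 0.053 and the growth factor gene VEGFA by 0.71 ± 0.055. LDHA, lactate dehydrogenase, fell by 1.75 ± 0.060 and MXI1, a MYC antagonist, by 0.39 ± 0.068. PDK1, the pyruvate dehydrogenase kinase, was at -0.15 ± 0.072 and was not called (edgeR adjusted p = 0.0577). BNIP3, at -0.31, lay within the range of this list.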

How the data were processed

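RNA sequencing of 3 DMSO and 3 Myrrh libraries was used; per the labels' protocols, TruSeq RNA kits were used on 1.5 µg of total RNA. The authors deposited estimated counts per gene, not scaled between libraries, and log2(TPM + 1) values; the submitters' processing notes name STAR, RSEM 1.3.1 and GRCh38. Annotation release and strand setting: not given in the sources used here. Estimated counts were rounded, filtered with filterByExpr, scaled with TMM and tested with edgeR 4.0.16 (robust glmQLFit, glmQLFTest, two-sided; R 4.3.3), with Benjamini-Hochberg adjustment over 16395 genes and a threshold of 0.05. The SE of a log2 fold change is its size over the square root of F. The log2(TPM + 1) values were tested with limma 3.58.1 (trend, robust), and DESeq2 1.42.0 was an alternative. A pseudocount of 1 shrinks folds of low genes. Positions came from GENCODE release 29.

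The 10 genes and the lists were chosen with earlier results of these data known. Named list genes were up to 2 with the highest and 2 with the lowest changes among called genes whose groups did not overlap and whose mean was 5 CPM or more, plus PDK1; 1 further gene is not reported here. Pairs of libraries within a group had chi-square values of 3.88 to 9.49 per degree of freedom and differed by more than sampling noise. In data simulated for this comparison over 16395 genes (10 sets), 49.2% of genes changed 1.25-fold and 71.6% of those changed 1.5-fold were recovered, and 8.99% of calls were false. Far fewer genes were changed in the simulated data than were called here, so these shares need not hold for these data.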

Additional observations from a re-analysis of the deposited data

How the results depend on the processing

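Over 16 alternatives, 135 of 160 values of the 10 genes kept their direction and their side of the threshold, 17 lost the call, 2 gained it and 6 changed sign. PINK1, FUNDC1, MFN2 and OPA1 were called in 16 of 17 settings, the exception being glmTreat against a log2 fold change of 0.5. That test called 0 of the 10 genes higher and 0 lower, with 3472 and 4011 of all genes and 23 and 3 of the other pathway genes. On log2(TPM + 1), limma called 2 of the 10 higher and 2 lower, with either filter on low values. Of all genes it called 72.6% with filterByExpr and 40% when every gene above 0 was kept. MFN1 turned to -0.088 with library totals, -0.044 when 5 CPM in 3 libraries were required and -0.041 with protein-coding genes alone, and DNM1L to 0.024 without a filter. Leaving out 1 library gave 3 higher and 5 lower calls each time, while 74.4% to 76.3% of all genes were called. The log2 fold change of DNM1L then lay between -0.019 and 0.013. The BNIP3 to BNIP3L difference ran from -0.064 to 0.031 with 1 library left out and was 0.062 on CPM; the cause was not tested. Same-numbered libraries did not deviate together (r = -0.0596, -0.00454 and 0.0361 across genes), so the values show no pairing by number. Libraries made in pairs without a shared deviation would look the same. With the replicate block 3 of the 10 genes were called higher and 5 lower, beside 6390 and 6392 of all genes. In the simulated data 49.2% of genes changed 1.25-fold were recovered, a share that need not hold for these data.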
